A study of Danio rerio with 24 samples.

Results

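The genes described here encode proteins of the vascular endothelium, the cell layer that lines blood and lymph vessels: the receptors kdrl, flt4, tie1 and tek and the adhesion molecule cdh5. They were chosen by name, as the probe sets annotated to 1 of these 5 genes. The rule used no measured value, but earlier results of these data were known when the genes and the lists below were chosen. Of the 5 genes, 4 had an annotated probe set, 1 each, among the 8793 genes that the annotation names on the array. No probe set was annotated to cdh5, the cadherin of endothelial junctions, which is not analysed here.

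Blood vessels grow when vascular endothelial growth factors bind receptor tyrosine kinases on endothelial cells. The product of kdrl is the main such receptor of sprouting zebrafish vessels, and the product of flt4 binds Vegfc and serves venous and lymphatic sprouting. The product of tek binds angiopoietins, which regulate how vessels mature and remodel, and tie1 encodes its relative without a ligand of its own in the classical view. In a regenerating fin, vessels at the stump heal and then grow into the new tissue.

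Caudal fins of AB strain zebrafish were measured on 24 Affymetrix arrays in 8 groups of 3 replicates. Fins of adult males were taken without amputation or on days 1, 3 and 5 after it (dpa, days post amputation), with 10 fish pooled per replicate. The regenerating adult fins came from fish given the vehicle liposomes by injection, and no injection is stated for the unamputated adults. Larvae gave fins without amputation, at 2 days post fertilization, and regenerating fins at 1, 2 and 3 dpa after amputation at that same age. A larval replicate pooled 150 fins. Larvae collected at 2 and 3 dpa had been held in water with the vehicle DMSO, while no vehicle is stated for the unamputated and 1 dpa larvae. In larvae, vehicle, time after amputation and age of the fish therefore cannot be told apart, and no unamputated larva of the later ages was measured. In adult changes against unamputated fin, amputation and vehicle injection cannot be told apart either. The titles of the larval arrays at 2 and 3 dpa and of all regenerating adult arrays carry a study name that the other titles lack. What this split means for handling is not stated, and it cannot be told apart from vehicle. Adults and larvae also differed in RNA extraction, in RNA input (2.5 µg in adults and 100 ng in larvae) and in labelling, which had 1 amplification cycle more in larvae. The groups are pools of whole fin tissue, so fewer endothelial cells and less RNA per endothelial cell cannot be told apart.

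The deposited values are ratios on a linear scale, whose reference is not given in the sources used here. In 12832 probe sets the value 1 lay within the middle 4 of the 24 arrays, so that for most probe sets 1 stands near the middle of their own values. A value can be compared between arrays for 1 gene, but not between genes, and it does not show whether a gene was detected. Changes were taken on the log2 scale with limma, and a probe set was called, that is, said to have risen or fallen, where it changed 2-fold or more with an adjusted p (Benjamini-Hochberg) under 0.05. Errors are standard errors of the model unless given as SD. Replicates correlated with r between 0.793 and 0.939, except in the larval 3 dpa group, where r was 0.629 to 0.808 and replicate 3 stood apart. The median of all probe sets lay at −0.17, −0.18 and −0.17 in adult fin at 1, 3 and 5 dpa against unamputated fin, and within 0.03 of zero in the larval comparisons. The tissue label could not be checked for presence on this scale. Relative levels of the 37 epidermis probe sets, which mark the main tissue of a fin, were 1.56 to 1.79 in the adult groups and −0.68 to −0.18 in the larval groups, as mean log2 ratios.

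The 4 receptors did not move together. In larval fin kdrl fell 10.1-fold between 1 and 2 dpa and was about as low at 3 dpa, flt4 was lower by less than 2-fold at 2 and 3 dpa, and tie1 and tek were not called on any larval day. In adult fin kdrl, flt4 and tie1 had positive changes on every day, of which the change of tie1 at 5 dpa was called. The adult change exceeded the larval change at 3 dpa for kdrl and flt4.

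**Figure D1:**
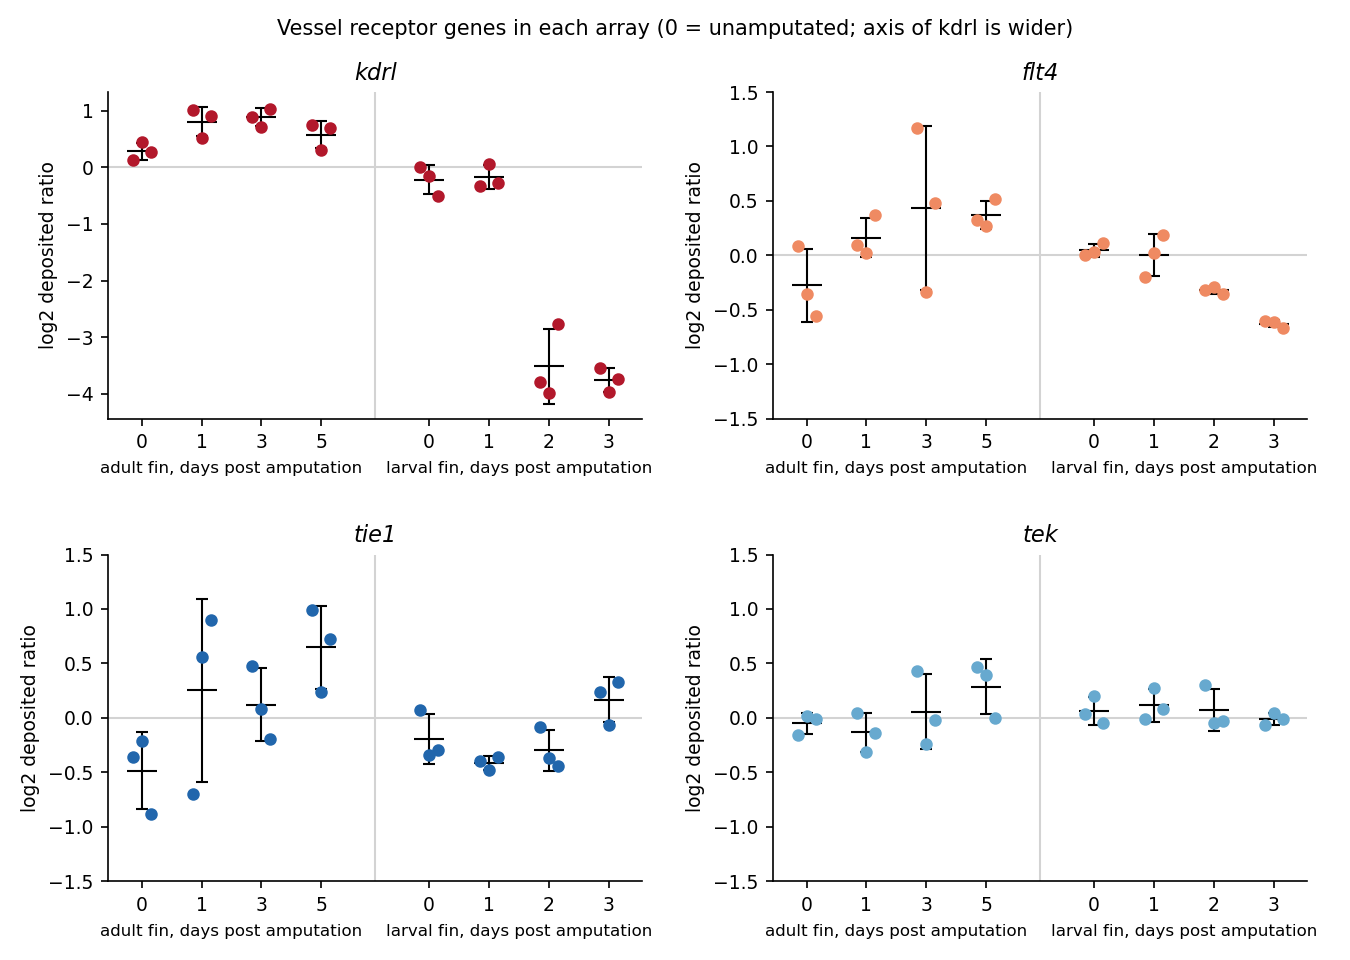
Log2 of the deposited ratio of kdrl, flt4, tie1 and tek in each of the 24 arrays (points), with the group mean and SD (bars, n = 3), for adult fins on the left and larval fins on the right of each panel; days are evenly spaced and 0 is unamputated fin. The 6 larval arrays at 2 and 3 dpa lie far below all others for kdrl, and the groups of tek overlap throughout.

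The VEGF receptor gene kdrl had the widest range of the 4. In adult fin its ratio was 1.09, 1.36 and 1.21 in unamputated fin, 2.01, 1.43 and 1.87 at 1 dpa, 1.86, 1.65 and 2.05 at 3 dpa, and 1.67, 1.23 and 1.62 at 5 dpa. All 6 arrays at 1 and 3 dpa were above the 3 unamputated ones, and the 5 dpa arrays overlapped them. The log2 change was 0.53 ± 0.17 at 1 dpa (limma adjusted p = 0.0269) and 0.60 ± 0.17 at 3 dpa (adjusted p = 0.0167), both under the 2-fold limit, and 0.30 ± 0.17 at 5 dpa (adjusted p = 0.184). Relative to the median of all probe sets these changes were 0.70, 0.79 and 0.47. Between 1 and 3 dpa and between 3 and 5 dpa the change was 0.07 ± 0.17 and −0.31 ± 0.17, and neither was called.

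In larval fin the kdrl ratio was 1.00, 0.900 and 0.707 before amputation and 0.798, 1.05 and 0.828 at 1 dpa, and these groups overlapped. At 2 dpa it was 0.0724, 0.0629 and 0.148, and at 3 dpa it was 0.0854, 0.0638 and 0.0745, so that the highest of these 6 arrays was below the lowest of the earlier 6. The log2 change at 1 dpa was 0.04 ± 0.28 (95% interval −0.57 to 0.65, limma adjusted p = 0.955). At 2 dpa kdrl fell by 3.30 on the log2 scale, with an interval of −3.91 to −2.68 (9.82-fold lower, SE 0.28, adjusted p = 1.15e-05). At 3 dpa it fell by 3.54, with an interval of −4.15 to −2.92 (11.6-fold lower, adjusted p = 8.16e-06). Without the 3 dpa replicate that stood apart, the change was −3.54 ± 0.32. Set against 1 dpa, the 2 dpa level was lower by 3.34 ± 0.28 (log2 change −3.34, adjusted p = 1.66e-05), and 3 dpa differed from 2 dpa by −0.24 ± 0.28 (adjusted p = 0.809). Of all 15502 probe sets, 89 had a lower change at 2 dpa and 85 at 3 dpa.

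The Vegfc receptor gene flt4 moved on a smaller scale. Its adult ratios were 1.06, 0.779 and 0.678 in unamputated fin, 1.07, 1.02 and 1.29 at 1 dpa, 2.24, 0.791 and 1.39 at 3 dpa, and 1.25, 1.20 and 1.43 at 5 dpa. The 3 dpa arrays spread over nearly the whole range of the gene, and the 5 dpa arrays were all above unamputated fin. The changes were 0.44 ± 0.32 at 1 dpa (limma adjusted p = 0.277), 0.71 ± 0.32 at 3 dpa (adjusted p = 0.0909) and 0.65 ± 0.32 at 5 dpa (adjusted p = 0.133). None was called, but without replicate b at 3 dpa, the array with the lowest value, flt4 was called there at 1.099 (adjusted p = 0.00918). With each array of the compared groups left out in turn, the change at 3 dpa ran from 0.35 to this value.

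In larval fin flt4 had ratios of 1.00, 1.02 and 1.08 before amputation, 0.871, 1.01 and 1.14 at 1 dpa, 0.800, 0.817 and 0.783 at 2 dpa, and 0.659, 0.653 and 0.630 at 3 dpa. The 2 dpa arrays were below every earlier larval array and the 3 dpa arrays below those of 2 dpa. The log2 change was −0.05 ± 0.10 at 1 dpa, −0.37 ± 0.10 at 2 dpa (limma adjusted p = 0.0186) and −0.68 ± 0.10 at 3 dpa (adjusted p = 0.000632). The last corresponds to 1.60-fold, so neither later change reached the 2-fold limit. The step from 2 to 3 dpa was −0.31 ± 0.10, with an unadjusted p of 0.0131 and an adjusted p of 0.279 in limma.

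The Tie receptor gene tie1 had adult ratios of 0.779, 0.864 and 0.541 in unamputated fin, 0.617, 1.48 and 1.87 at 1 dpa, 1.39, 1.06 and 0.875 at 3 dpa, and 1.98, 1.18 and 1.65 at 5 dpa. Replicate b at 1 dpa was within the unamputated range, and the arrays at 3 and 5 dpa were all above it. The change was 0.74 ± 0.38 at 1 dpa (limma adjusted p = 0.137), 0.60 ± 0.38 at 3 dpa (adjusted p = 0.221) and 1.13 ± 0.38 at 5 dpa, where tie1 rose 2.20-fold (adjusted p = 0.044). The call at 5 dpa was close to the threshold. It was lost without any 1 of the 3 unamputated replicates and without 5 dpa replicate a or c, with log2 changes of 0.93 to 1.27 and adjusted p of 0.0665 to 0.128. Without replicate b at 1 dpa, its lowest array, tie1 was called at that day too, at 1.22 (adjusted p = 0.0083). With each array of the compared groups left out in turn, the change at 1 dpa ran from 0.42 to this value.

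Larval tie1 ratios were 1.05, 0.787 and 0.813 before amputation, 0.760, 0.715 and 0.780 at 1 dpa, 0.941, 0.776 and 0.736 at 2 dpa, and 1.18, 0.956 and 1.26 at 3 dpa. At 1 dpa every array was below the unamputated ones, by a small margin, and at 3 dpa every array was above those of 2 dpa. The changes were −0.22 ± 0.15 at 1 dpa, −0.11 ± 0.15 at 2 dpa (95% interval −0.43 to 0.22) and 0.36 ± 0.15 at 3 dpa, with limma adjusted p of 0.389, 0.657 and 0.0993. The interval at 2 dpa does not reach the changes of kdrl or plvapb on that day.

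The angiopoietin receptor gene tek varied least. Its adult ratios were 0.896, 1.01 and 0.990 in unamputated fin, 1.03, 0.807 and 0.907 at 1 dpa, 1.35, 0.846 and 0.984 at 3 dpa, and 1.38, 1.32 and 1.00 at 5 dpa. Larval ratios were 1.02, 1.15 and 0.968 before amputation, 0.990, 1.21 and 1.06 at 1 dpa, 1.23, 0.968 and 0.978 at 2 dpa, and 0.952, 1.03 and 0.991 at 3 dpa. Regenerating and unamputated arrays overlapped at every day of both ages. The largest change was 0.34 ± 0.19 in adult fin at 5 dpa (limma adjusted p = 0.176), and the larval changes lay between −0.07 and 0.05 with standard errors of 0.12. Over all 24 arrays tek ranged 1.71-fold, and its SD of log2 values was at the 10.6th percentile of all probe sets. Because the deposited scale hides brightness, a steady transcript and a probe set too dim to show a change cannot be told apart here. The same holds for tie1 in larval fin, where it was not called on any day.

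**Figure D2:**
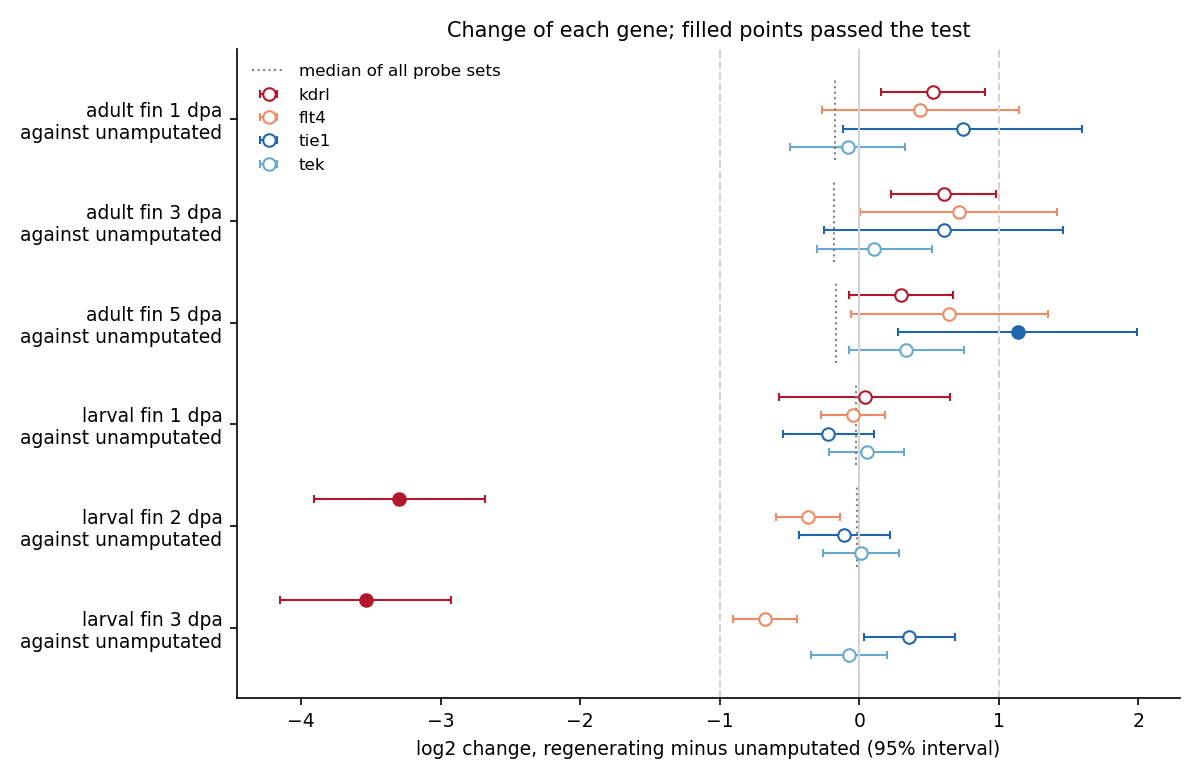
Log2 change of each gene in regenerating against unamputated fin (points) with its 95% interval (bars), adult comparisons above larval ones; filled points were called, dashed lines mark a 2-fold change and dotted lines the median of all probe sets. Larval kdrl at 2 and 3 dpa, at −3.30 and −3.54, and adult tie1 at 5 dpa, at 1.13, are the called points.

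Counted over the 4 genes, 1 was called in adult fin at 5 dpa (tie1, 11.5% of all probe sets called) and 1 each in larval fin at 2 dpa (kdrl, 12.5%), at 3 dpa (kdrl, 10.6%) and at 2 dpa against 1 dpa (kdrl, 8.93%). With 4 genes, 1 call is a share of 25%, and the step of 1 gene is too coarse to set against these backgrounds. No gene was called by limma in adult fin at 1 dpa (background 16.1%) or 3 dpa (14.3%), and at an unadjusted p under 0.05 the counts were 1 and 2. None was called in adult fin at 3 dpa against 1 dpa (2.48%) or 5 dpa against 3 dpa (0.0516%), with 0 at the unadjusted p in both. In larval fin none was called at 1 dpa (4.01%) or at 3 dpa against 2 dpa (0.297%). At the unadjusted p the counts were 0 and 2, these 2 being flt4 and tie1. The shares in brackets are of called probe sets. How many of all probe sets passed the unadjusted p was not counted, so counts at it have no background, here and below.

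The adult change was then set against the larval change on the days that both ages share. At 3 dpa, 2 of the 4 genes were called higher in the adult comparison, with a background of 22.1%. For kdrl the log2 change was 0.60 in adults and −3.54 in larvae, a difference of 4.14 ± 0.34 (limma adjusted p = 5.51e-08). For flt4 the changes were 0.71 in adults and −0.68 in larvae, a difference of 1.39 ± 0.34 (adjusted p = 0.00384). The differences for tie1 (0.25 ± 0.43, 95% interval −0.64 to 1.14) and tek (0.18 ± 0.23, interval −0.29 to 0.66) were not called. At 1 dpa none of the 4 differences was called (background 17.9%), and 1 had an unadjusted p under 0.05 in limma. That was tie1, at 0.96 ± 0.43 (adjusted p = 0.0913), which was called at 1.44 (adjusted p = 0.00227) without adult 1 dpa replicate b. With each array of the compared groups left out in turn, this difference ran from 0.64 to 1.44. Vehicle, RNA input and labelling differ between the ages, and their part in these differences was not tested.

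Unamputated adult and larval fin did not differ by a called amount in any of the 4 genes (background 27.0%), and none had an unadjusted p under 0.05. The adult minus larval difference was 0.50 ± 0.24 for kdrl (95% interval −0.01 to 1.00), where the adult arrays were all above the larval ones. It was −0.33 ± 0.24 for flt4, −0.30 ± 0.30 for tie1 and −0.11 ± 0.16 for tek, with overlapping arrays.

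Ranked by mean log2 ratio over all 8 groups, kdrl was highest in adult fin at 3 dpa, then at 1 dpa, at 5 dpa and in unamputated adult fin, followed by larval fin at 1 dpa, unamputated, at 2 dpa and at 3 dpa. The arrays of neighbours in this order overlapped, except between unamputated adult fin and larval fin at 1 dpa, and between unamputated larval fin and larval fin at 2 dpa. For flt4 the order was adult 3, 5 and 1 dpa, unamputated larval, larval 1 dpa, unamputated adult, and larval 2 and 3 dpa, and only the lowest pair did not overlap. The order for tie1 was adult 5 dpa, adult 1 dpa, larval 3 dpa, adult 3 dpa, unamputated larval, larval 2 and 1 dpa and unamputated adult, with overlap at every step. The order of tek, from adult 5 dpa down to adult 1 dpa, also overlapped at every step, and no neighbours differed by more than their pooled SD.

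After each age was centred on its own mean, kdrl and flt4 correlated with r = 0.53 over the 24 arrays, with 0.87 in the 12 larval and 0.51 in the 12 adult arrays. The arrays fall into time groups, so these values describe the shared group pattern. The other 5 pairs of the 4 genes had r between −0.15 and 0.47, and tie1 and flt4 ran opposite ways in larvae (r = −0.63) but not in adults (r = 0.55). The genes with patterns most like kdrl among 10791 probe sets were not vessel genes. They were smyhc1, a slow muscle myosin, col2a1a, the collagen of notochord and cartilage, and ttn.2, a muscle titin, each with r = 0.98, and their larval changes at 2 dpa were −7.51, −7.67 and −5.55. Most like flt4 were cdh2, the neural cadherin, tenm3 and cyyr1 (r = 0.81, 0.81 and 0.80), all with negative larval and positive adult changes at 3 dpa. Most like tie1 were ivns1abpa, sgce and naa15b (r = 0.87, 0.84 and 0.84). For tek the values were lower, at 0.71 for lama4, a laminin chain of vessel and muscle basement membranes, for pcbp4 and for the growth factor gene igf1.

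Vessel genes beyond the 4 receptors were read from 6 lists, on which 66 of 126 genes were measured by 82 probe sets. In adult fin the risers among the 82 numbered 10, 14 and 15 on days 1, 3 and 5, beside 16, 9 and 9 that fell. In larval fin 4, 5 and 5 rose on days 1, 2 and 3, while 2, 14 and 14 fell. The called share in adult fin was 31.7%, 28% and 29.3% on days 1, 3 and 5, against 16.1%, 14.3% and 11.5% of all probe sets. In larval fin it was 7.32%, 23.2% and 23.2% on days 1, 2 and 3, against 4.01%, 12.5% and 10.6%. The median change of the lists stayed within 0.15 of the median of all probe sets on each of these days, and the lists held changes in both directions. Of all probe sets 1345, 1256 and 1087 rose in adult fin on days 1, 3 and 5, and 1147, 959 and 691 fell. In larval fin 377, 965 and 787 rose on days 1, 2 and 3, and 245, 980 and 854 fell. The called listed probe sets thus leaned more to falls than all probe sets did in larval fin at 2 and 3 dpa. The larval change of kdrl was exceeded by 1 of the 82 probe sets, that of cxcl12b, on both days.

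**Figure D3:**
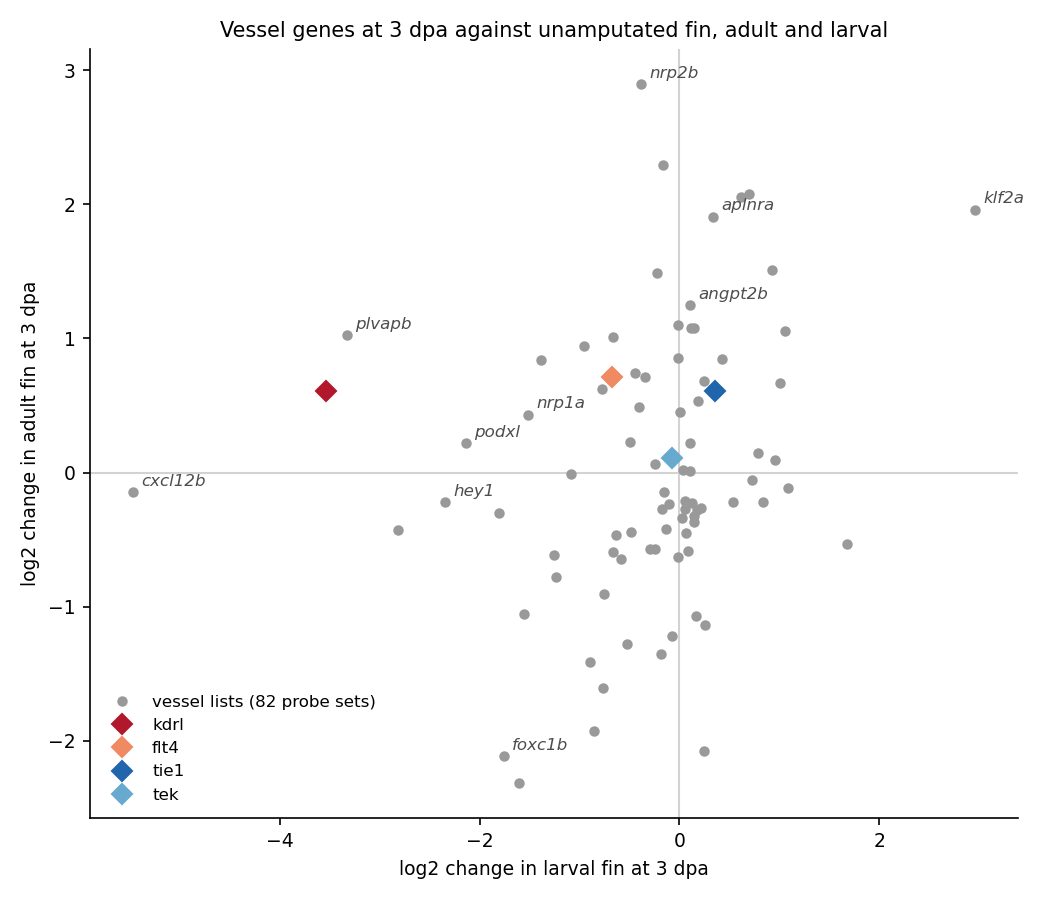
Log2 change at 3 dpa against unamputated fin, in adult fin (vertical axis) and larval fin (horizontal axis), of the 82 probe sets on the vessel lists (grey) and of the 4 receptors (coloured diamonds). The genes kdrl and plvapb lie far to the left, with adult changes of 0.60 and 1.03, and tie1 and tek lie near the bulk of the lists.

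Of the VEGF ligands and receptors, 5 of 15 genes were measured. The ligand genes vegfaa and vegfc were not called on any day, with adult changes of −0.26 and −0.88 at 1 dpa and larval changes of 0.20 and −0.93 at 2 dpa. The co-receptors carried the calls. The gene nrp1a, whose product binds VEGF together with Kdrl, had ratios of 1.38, 3.65 and 3.47 in adult fin at 1 dpa, against 0.716, 0.768 and 0.723 in unamputated adult fin, and rose by 1.82 ± 0.31 (limma adjusted p = 0.00159). In adult fin at 3 dpa it was back within 0.43 of unamputated fin. In larvae nrp1a fell by 1.58 on the log2 scale at 2 dpa, as kdrl did on that day, with all 3 arrays at or below 1.00 against 2.04 to 3.43 in unamputated fin. The neuropilin gene nrp2b rose by 2.90 ± 0.45 and 2.92 ± 0.45 in adult fin at 3 and 5 dpa. The semaphorin receptor gene plxnd1, a guide of vessel sprouts, rose by 1.46, 1.51 and 1.88 ± 0.30 at 1, 3 and 5 dpa.

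In the angiopoietin and Tie pathway 3 of 10 genes were measured. The gene angpt2b, which encodes a ligand of the Tek receptor, had adult ratios of 1.03, 1.00 and 1.01 before amputation, 0.913, 1.20 and 0.818 at 1 dpa, 2.62, 2.26 and 2.34 at 3 dpa, and 2.82, 2.64 and 5.47 at 5 dpa. It rose by 1.25 ± 0.25 at 3 dpa (limma adjusted p = 0.00369) and by 1.77 ± 0.25 at 5 dpa (adjusted p = 0.00114), and was flat in larvae, with changes of −0.02 to 0.11. The gene of the other ligand, angpt1, was not called, with changes of −0.15 in adult and −0.15 in larval fin at 3 dpa.

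Of 14 probe sets of junction partners, 2 rose in adult fin at 3 dpa and 2 at 5 dpa, and in larval fin 1 rose and 1 fell at 2 and at 3 dpa. The called share of 14.3% on each of these days was near that of all probe sets, which was 14.3% and 11.5% in adult and 12.5% and 10.6% in larval fin. The junctional adhesion gene jam3b rose by 1.49 ± 0.23 and 1.18 ± 0.23 in adult fin at 3 and 5 dpa in 1 of its 2 probe sets, the other having 0.53 and 0.38. In larval fin jam2a, a gene also known from muscle fusion, rose by 2.39 ± 0.54 at 2 dpa. The tight junction gene cldn5a fell by 1.23 on the log2 scale at 3 dpa in 1 of its 3 probe sets, and the others had −0.30 and −0.02.

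Among 22 probe sets of endothelial transcription factors, adult fin at 3 dpa had 5 that rose beside 3 that fell, and larval fin 2 beside 4. These are shares of 36.4% and 27.3%, against 14.3% and 10.6% of all probe sets, and the median changes were −0.22 and −0.06, against −0.18 and 0.00. The flow-responsive factor klf2a had larval ratios of 0.0808, 0.0871 and 0.0915 before amputation, 0.720, 0.378 and 0.589 at 2 dpa, and 0.514, 1.00 and 0.594 at 3 dpa. It rose by 2.65 ± 0.29 and 2.96 ± 0.29, opposite to kdrl on both days, and in adult fin by 2.24 ± 0.44 at 5 dpa. The Ets factor gene ets1 rose in adult fin at 1 dpa in both of its probe sets, by 2.43 ± 0.64 and 2.01 ± 0.33, and at 5 dpa by 2.76 and 2.33. The forkhead genes foxc1a and foxc1b fell in larval fin at 2 dpa by 1.99 and 1.70 on the log2 scale, and foxc1b fell by 2.12 in adult fin at 3 dpa. The gene prox1a, whose product sets lymphatic identity, rose by 1.40 ± 0.23 in adult fin at 3 dpa against 1 dpa. Against unamputated fin it rose by 1.103 ± 0.23 at 3 dpa, which was not called without unamputated replicate 2 (0.88), and its change at 5 dpa was 0.09.

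On the list of arterial, venous and Notch genes, adult fin at 3 dpa had 1 of 20 probe sets that rose beside 6 that fell, and larval fin 0 beside 4. The called shares of 35% and 20% stood against 14.3% and 10.6% of all probe sets, and the median changes were −0.30 and −0.47. The Notch ligand gene jag1a rose by 3.18 ± 0.20 in adult fin at 1 dpa and by 2.29 ± 0.20 at 3 dpa, while its larval change at 3 dpa was −0.17. Among the adult fallers, the chemokine gene cxcl12a had changes of −3.70 and −2.31 at 1 dpa in its 2 probe sets, both called. At 3 dpa the first had −2.31, which was called, and the other −0.43. The Notch target hey1, an arterial factor, fell in larval fin by 1.76 on the log2 scale at 2 dpa and by 2.35 at 3 dpa. The chemokine gene cxcl12b fell by 5.64 and 5.48 on the same days, and the chemokine receptor genes cxcr4a and cxcr4b fell at 1 dpa by 1.83 and 1.36. These genes are also active outside vessels, so their values are those of the whole fin.

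The marker plvapb, whose product forms the diaphragms of endothelial pores, had larval falls of about the size of those of kdrl. Its adult ratios were 1.67, 2.34 and 1.29 before amputation, 2.05, 1.61 and 1.52 at 1 dpa, 3.67, 3.27 and 3.57 at 3 dpa, and 5.16, 4.09 and 5.24 at 5 dpa. It rose by 1.48 ± 0.21 at 5 dpa (limma adjusted p = 0.00107), and its rise of 1.03 ± 0.21 at 3 dpa was no longer called without adult unamputated replicate 3 or 3 dpa replicate a. In larval fin the ratios were 0.449, 0.598 and 0.377 before amputation, 1.00, 1.64 and 0.772 at 1 dpa, 0.0525, 0.0448 and 0.0459 at 2 dpa, and 0.0493, 0.0451 and 0.0449 at 3 dpa. It fell by 3.29 on the log2 scale at 2 dpa and fell by 3.33 at 3 dpa (SE 0.24), after a change of 1.21 ± 0.24 at 1 dpa that was called with all arrays but not without 1 dpa replicate 2. The difference between adult and larval change at 3 dpa was 4.36 ± 0.33 (adjusted p = 1.81e-08), against 4.14 for kdrl. The larval plvapb ratios at 2 and 3 dpa all lay between 0.0448 and 0.0525. Whether plvapb was still detected there cannot be read from ratios, so the sizes of its falls may be limited by the scale.

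The other endothelial markers, 18 probe sets with that of plvapb, went both ways in larval fin. At 2 dpa 1 rose and 4 fell, and at 3 dpa 2 rose and 4 fell, which is 27.8% and 33.3% called against 12.5% and 10.6% of all probe sets, and the list's median change was 0.01 and 0.25. The riser on both days was acvrl1, which encodes an endothelial receptor of the TGF-beta family, at 1.05 and 1.06 ± 0.12 (limma adjusted p = 8.87e-05 and 9.36e-05), and the other riser at 3 dpa was 1 probe set of the retinoic acid-degrading enzyme gene cyp26b1, at 1.00. Neither was firm: acvrl1 was not called without unamputated replicate 1, at 0.95 and 0.96, and cyp26b1 was not called without unamputated replicate 2 or 3 or 3 dpa replicate 3, at 0.84 to 0.97. Among the fallers, the surface mucin gene podxl, which also marks kidney podocytes, fell by 1.73 at 2 dpa and by 2.14 at 3 dpa, and s1pr1, a sphingosine phosphate receptor of vessels, by 2.01 and 1.38 in 1 of its 2 probe sets, the other having −0.02 and 0.25. By contrast the apelin receptor gene aplnra, a marker of sprouting vessels, rose in adult fin by 2.01, 1.91 and 1.94 ± 0.27 at 1, 3 and 5 dpa and had larval changes of −0.17 and 0.34 at 2 and 3 dpa. The gene of its ligand, apln, fell by 1.67 in adult fin at 1 dpa. Of the 18 probe sets, 1, 3 and 4 rose in adult fin at 1, 3 and 5 dpa and 3, 0 and 0 fell. The called shares of 22.2%, 16.7% and 22.2% stood against 16.1%, 14.3% and 11.5% of all probe sets. The adult risers at 5 dpa included acvrl1, at 1.18 ± 0.19.

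Mural cells wrap the endothelium, and 6 of 21 listed genes were measured by 7 probe sets. At 3 dpa adult fin had 2 risers and 2 fallers among them, and larval fin 0 and 2, where 14.3% and 10.6% of all probe sets were called. In larval fin at 2 dpa 1 rose and 2 fell, where 12.5% of all probe sets were called. With 7 probe sets these counts are too coarse to set against those shares. The smooth muscle gene tagln rose by 1.37 ± 0.48 in adult fin at 3 dpa and by 1.65 ± 0.57 in larval fin at 2 dpa. Neither call was firm: with 1 array left out, the adult call was kept in 1 of 6 fits and the larval call in 0 of 6. The smooth muscle actin gene acta2 fell by 1.51 and 1.30 in adult fin at 1 and 3 dpa. The intermediate filament gene desma, which is also on the muscle list, fell by 3.58 in larval fin at 2 dpa. Of 2 probe sets of the pericyte gene rgs5a, 1 fell in larval fin at 2 dpa, by 1.97, and the other fell in adult fin at 1 and 3 dpa, by 1.75 on both days. Among 15 probe sets of hypoxia-related genes, adult fin at 3 dpa had 0 that rose beside 5 that fell, and larval fin 1 beside 4. That is 33.3% called in both ages, against 14.3% and 10.6% of all probe sets, with median changes of −0.77 in adult and 0.00 in larval fin. The gene epas1a, which encodes a hypoxia-inducible factor abundant in endothelium, fell by 3.37 in adult fin at 3 dpa in 1 of its 3 probe sets and in larval fin at 3 dpa in all 3, by 2.77, 2.69 and 1.52.

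Markers of other tissues moved with kdrl in the larval fin. Of 29 skeletal muscle probe sets, 24 fell at 2 dpa and 24 at 3 dpa, with median changes of −4.86 and −4.88. The level of that list, as a mean log2 ratio over its probe sets, was 2.91 to 4.71 in the unamputated larval arrays, 3.98 to 5.48 at 1 dpa, −0.17 to 0.34 at 2 dpa and −0.17 to −0.05 at 3 dpa. At 2 dpa 12 of 22 notochord and cartilage probe sets fell and 1 rose, 10 of 13 erythrocyte probe sets fell, 5 of 25 neuron and glia probe sets fell and 11 of 37 epidermis probe sets fell and 3 rose. On that day 12.5% of all probe sets were called against unamputated fin. The called share of neuron and glia markers, 20%, was nearer to this than those of epidermis (37.8%), notochord and cartilage (59.1%), erythrocyte (76.9%) and muscle markers (82.8%). Against 1 dpa, however, 10 of the 25 neuron and glia probe sets fell at 2 dpa and 0 rose, after 5 had risen at 1 dpa. That share of 40% stood against 8.93% of all probe sets and 13.5% of epidermis markers. Leukocyte markers went the other way, with 7 of 22 probe sets higher and 1 lower at 2 dpa, a called share of 36.4%. In adult fin the muscle level was −0.51 or lower in every array, with 1 of 29 probe sets (3.45%) called, higher, on each day. Of 13 erythrocyte probe sets 1, 1 and 2 rose at 1, 3 and 5 dpa and 0 fell, which is 7.69%, 7.69% and 15.4% called. On these days 16.1%, 14.3% and 11.5% of all probe sets were called. Whether any of these markers was at zero cannot be read from ratios. The part of muscle, notochord and blood tissue in the larval falls of kdrl and plvapb was not tested.

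**Figure D4:**
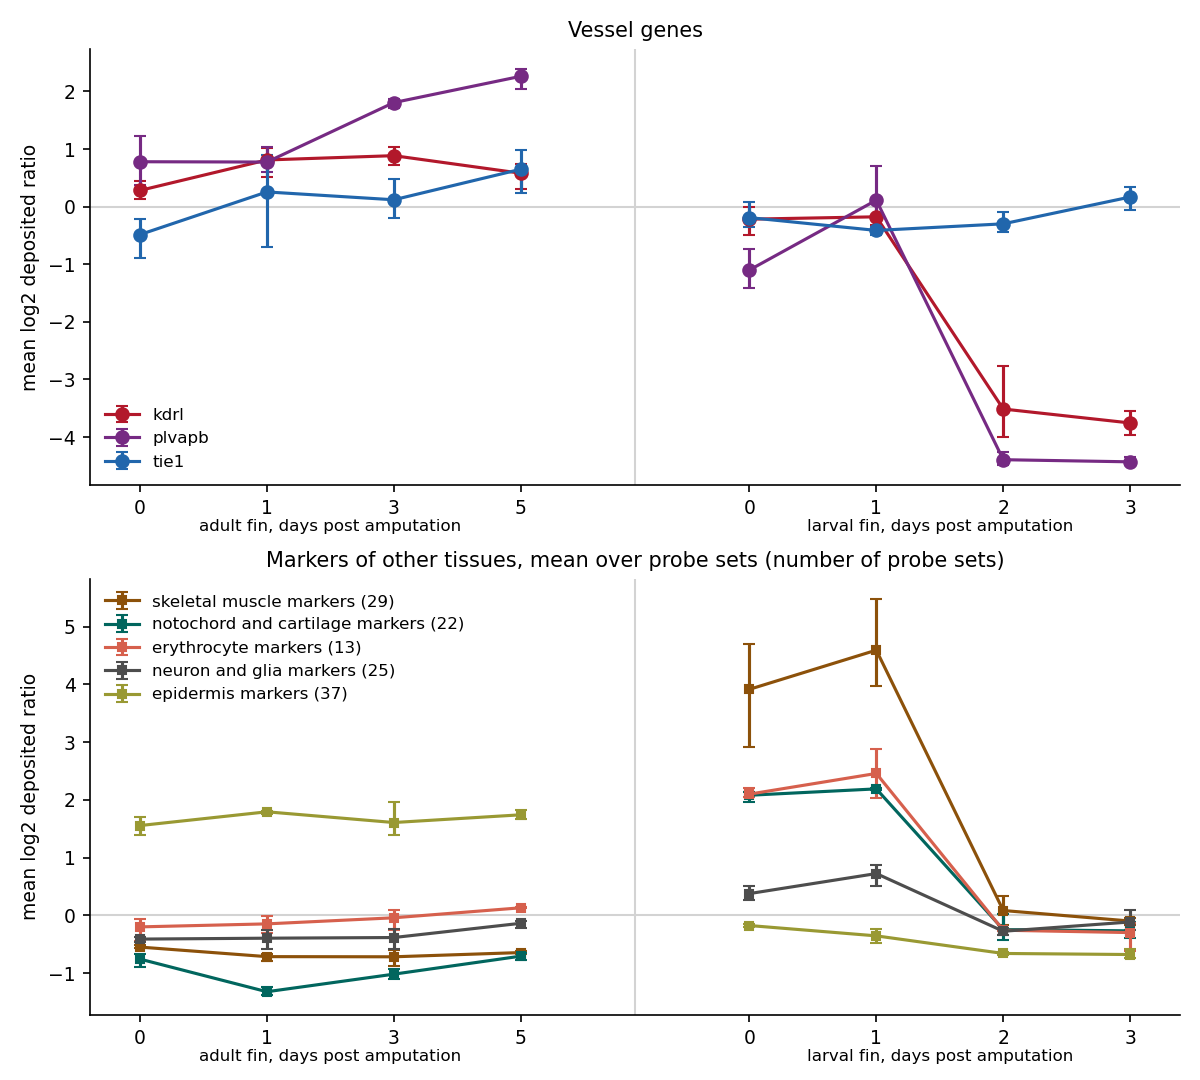
Mean log2 ratio per group of kdrl, plvapb and tie1 (upper panel) and of 5 marker lists of other tissues (lower panel, number of probe sets in brackets), adult fins on the left and larval fins on the right; bars run from the lowest to the highest of 3 arrays. Muscle, notochord and erythrocyte levels drop between larval 1 and 2 dpa together with kdrl and plvapb, while tie1 does not. The neuron and glia level goes from 0.72 to −0.28 in this step, and that of epidermis from −0.36 to −0.66.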

How the data were processed

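RNA from adult and larval caudal fins was hybridised to 24 Affymetrix zebrafish arrays. The authors deposited 1 value per probe set and array, a ratio on a linear scale, made with GCRMA per the submitters' processing notes, without a version. Of 15617 probe sets, 11182 hold the value 1 in exactly 1 array (within 1e-06), and in 12832 the value 1 lies within the middle 4 of the 24 values. The reference is not given in the sources used here. Their number of arrays limits the precision. Group labels follow the sample titles. All 6 source names of the larval unamputated and 1 dpa arrays say replicate 1, and the text of the adult unamputated arrays names collection days after amputation.

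The log2 of each deposited ratio was analysed without further normalization. Leaving out 115 controls, 15502 probe sets were tested, and 10795 of them carried 1 gene symbol. Comparisons within an age used a limma fit (3.58.1, under R 4.3.3) of its 12 arrays, those between ages a fit of all 24, and the fits were tested on simulated data. Adjusted p-values cover all probe sets. Nothing beyond separate pools of fish is stated about replicates, so p-values measure the spread between pools. Alternatives were array centring, quantile normalization, a pseudocount of 0.1, a filter on the mean log2 ratio and no fold limit. Others were another variance prior, other array sets, a replicate block and each array left out.

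The genes and lists were chosen with earlier results of these data known. Lists were counted over probe sets. From each vessel, mural and hypoxia list the rule names up to 3 called probe sets with the largest change per comparison, which gave 124 named results. From these the text takes examples among the 94 that stayed called with every array left out, a restriction made after the values were seen. Named otherwise are plvapb on 2 days and tagln in adult fin at 3 dpa and larval fin at 2 dpa. Values of acvrl1, cyp26b1 and, against unamputated fin, prox1a were added after they were seen. Uncalled values of vegfaa, vegfc and angpt1, and the values per array of 5 vessel genes, were also chosen after seeing them. Likeness was Pearson's r over 24 arrays after centring each age. Replicate letters were taken to pair the adult 3 and 5 dpa arrays, whose same-lettered deviations correlated with r of 0.433, 0.216 and 0.156. For larval numbers this r ran from −0.035 to 0.197, and whether they pair arrays stayed unclear. The main fits used neither pairing.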

Additional observations from a re-analysis of the deposited data

Results flagged for a closer look

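At 3 dpa the adult minus larval change was called by limma in 27 of the 82 vessel list probe sets. That is 32.9%, against 22.1% of all probe sets. Flagged here are the receptor genes with a called difference. A listed gene was flagged only if it was also called in both ages, in opposite directions. For kdrl the change was 0.60 in adults and −3.54 in larvae, a difference of 4.14 ± 0.34 (adjusted p = 5.51e-08). For flt4 it was 0.71 in adults and −0.68 in larvae, a difference of 1.39 ± 0.34 (adjusted p = 0.00384). For plvapb it was 1.03 in adults and −3.33 in larvae, a difference of 4.36 ± 0.33 (adjusted p = 1.81e-08). Groups held 3 arrays each, too few to look for single outlying samples.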

How the results depend on the processing

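Recomputed under 34 alternatives, 736 of 749 changes of the 4 genes kept their side of the threshold, 5 lost their call, 8 gained one and 0 called changes reversed. Of the 736, 710 kept their direction and 26 uncalled ones changed sign, with values of −0.1 to 0.3, against −0.24 to 0.27 with all arrays and the main settings; these include kdrl in larval fin at 1 dpa and tek in adult fin at 1 dpa. The larval falls of kdrl stayed called throughout, at −3.67 to −2.33 at 2 dpa and −3.68 to −2.46 at 3 dpa. Its difference between ages at 3 dpa stayed between 3.03 and 4.94, and that of flt4 between 1.02 and 1.77.

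With no minimum fold change the count of called genes was 2 each for larval fin 2 dpa and 3 dpa against unamputated. It was also 2 for larval fin 2 dpa against 1 dpa, and 1 each for adult fin 1 dpa and 3 dpa against unamputated. Of all 15502 probe sets, 4899, 4371, 3629, 7160 and 6783 were called in these comparisons, in this order. With the fold limit they were 1945, 1641, 1385, 2492 and 2215, so the background grew too. With 4 genes the step of 1 gene is too coarse to set against these backgrounds. With 1 array left out, the count was 0 to 1 for adult fin 5 dpa against unamputated (tie1 lost), 0 to 1 for adult fin 1 dpa against unamputated and for the adult minus larval change at 1 dpa (tie1 gained), and 0 to 1 for adult fin 3 dpa against unamputated (flt4 gained). Of the 1736 recomputed values of other named genes 1587 kept their call, 148 lost it and 1 reversed: klf2a in larval fin 1 dpa against unamputated, at −0.0182 with quantile normalization against 1.35. The cause was not tested.

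Without a fold limit 34 of the 82 vessel list probe sets were called in larval fin at 2 dpa and 37 at 3 dpa, against 19 each. In adult fin at 3 dpa 38 were called, against 23. Of all 15502 probe sets 4899, 4371 and 6783 were called in these comparisons, against 1945, 1641 and 2215, so the background grew too. When only probe sets with a mean log2 ratio above the median were tested, 1105 were called in larval fin at 2 dpa and 1190 in adult fin at 3 dpa. Only tek of the 4 genes was included, so the others have no value there. This mean does not rank probe sets by brightness. A replicate block by larval number or adult letter changed no call of the 4 genes: with the pairing by letter, tie1 in adult fin at 5 dpa against 3 dpa changed by 0.53 ± 0.18 (adjusted p = 0.346).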
